A study of Mus musculus with 4 samples.

Results

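The cadherins and the non-clustered protocadherins are calcium-dependent adhesion proteins of the cell surface. They were taken here as the genes whose symbol is Cdh or Pcdh followed by a number, with Pcdh11x included, and 35 of the 19938 named genes on the array met that rule. They comprised 5 type I cadherins, 13 type II cadherins, 5 other cadherins and 12 protocadherins. The last group held 4 of the delta-1 class, 5 of the delta-2 class and 3 others. The rule uses symbols and no measured value, but the family was picked with earlier results of these data known.

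The levels come from mice of the ICR stock, which is outbred, at embryonic day 17.5. Total RNA of 4 dissected brain regions was hybridised to 4 Affymetrix arrays, 1 for each region. Tissue of 13 mice was pooled for cerebellum, of 14 for olfactory bulb, of 15 for pontine nucleus and of 16 for superior colliculus. No region has a replicate, so values carry no SD and no p-value. Effects of region and of the single pooled preparation cannot be told apart. In such bulk tissue, fewer cells of a type and less RNA per cell cannot be told apart either.

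Classical cadherins join cells through their outermost extracellular repeat and hold on to the actin skeleton through catenins bound to their tail. Type I members carry a conserved adhesive surface and include the epithelial and neural cadherins, while type II members have a wider adhesive interface and are known for combinatorial expression in brain nuclei and layers. Delta protocadherins lack the catenin-binding tail and adhere more weakly. Those of the delta-2 class bind the WAVE complex, which drives branching of actin, and several of them steer axon growth. In the embryonic brain these families are known for sorting neurons into nuclei and for matching axons to targets.

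Values are log2 signals, in which 1 unit is a 2-fold difference. A gene was counted as varying when its highest and lowest array differed by at least 1 unit, as higher in a region when it exceeded each other array by at least 1 unit, and as lower when it fell short of each other array by as much. As a yardstick, genes of vomeronasal receptors and beta defensins, 202 in all and taken as silent in brain, had a 95th percentile of 7.33. Their highest minus lowest reached at most 0.88, with a 95th percentile of 0.58, and none varied by the rule. Levels at or below 7.33 are called background here. Levels of different genes are not set against each other, because probe sets differ in brightness. Sets of 4 levels are in the order cerebellum, olfactory bulb, pontine nucleus, superior colliculus.

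The arrays had medians between 8.07 and 8.13. Marker genes went with the labelled regions, but their lists were chosen with earlier results of these data known and are no independent check. All 8 cerebellar markers and all 9 olfactory bulb markers were higher by the rule in their own region, and all 9 hindbrain and pontine markers read highest in the pontine nucleus, 7 of them by the rule. Of 7 tectal markers, 5 were higher by the rule in the superior colliculus, while Lhx1 read highest in the cerebellum and Meis2 in the olfactory bulb. The pontine nucleus array stood apart: 259 probe sets without an annotation entry lay at least 1 unit above the other arrays there, against 7 to 17 on each other array. Counts that rest on it are therefore also given without it.

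Cadherins and protocadherins differed widely between the regions. Of 35 members, 21 varied, against 9.33% of all named genes. The median of highest minus lowest was 1.25 units over the members and 0.32 over all genes. Cdh9 spanned 3.74 units, Cdh12 2.91, Pcdh11x 2.59, Pcdh18 2.56 and Cdh8 2.53. At the other end Cdh15 spanned 0.08, and Cdh5 and Cdh16 each 0.16. Among genes whose mean level exceeded 8.56, the median of all gene levels, 18 of 26 members varied, against 12.6%. Without the pontine nucleus array 13 of 35 varied, against 6.12%.

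**Figure D1:**
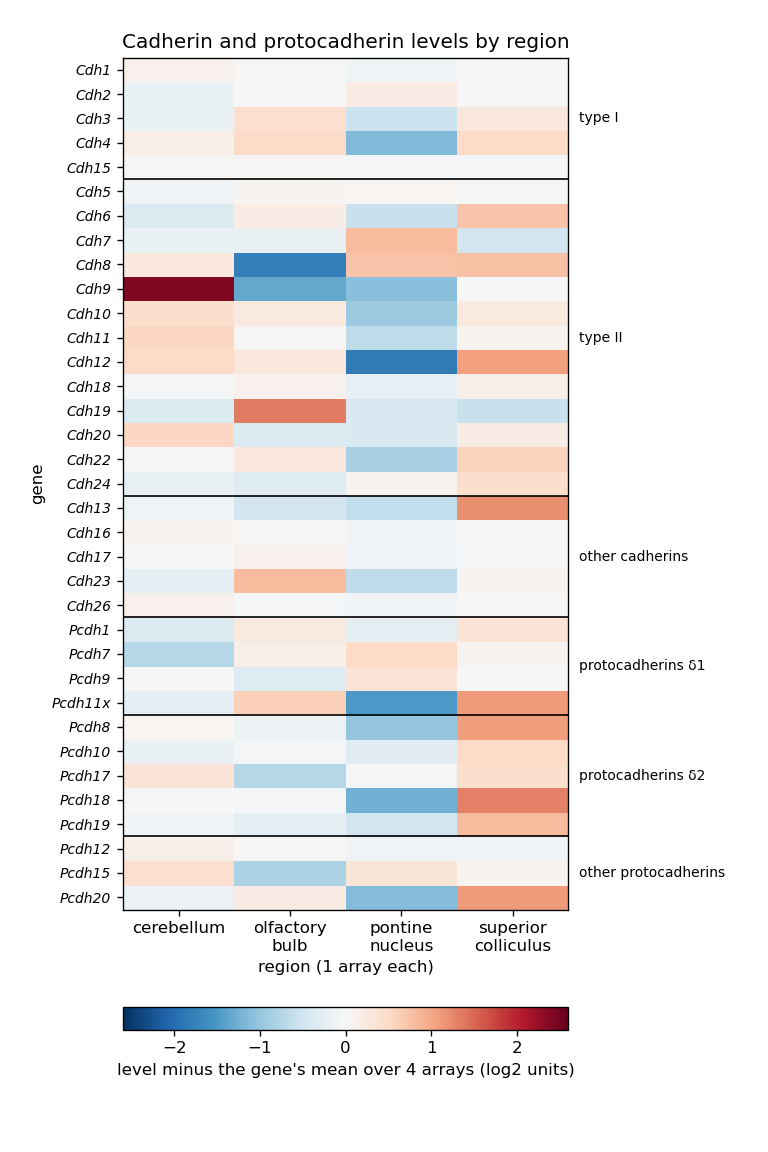
Heat map of the 35 members (rows, by group) in the 4 regions (columns, 1 array each). Colour gives the level minus the gene's mean over the 4 arrays in log2 units, red above and blue below. The pontine nucleus column is the lowest of the 4 for 22 genes and the superior colliculus column the highest for 16.

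The superior colliculus, the visual part of the midbrain roof, and the pontine nucleus, a hindbrain nucleus whose axons run to the cerebellum, were at opposite ends. The superior colliculus held the highest level of 16 of the 35 members, where 21.1% of all genes were highest in that region. The pontine nucleus held the lowest level of 22, where 32.7% of all genes were lowest. Above the mean level of 8.56 these were 14 of 26 members against 24.1%, and 16 of 26 against 24.8%. With the pontine array left out, the superior colliculus was highest for 17 of 35 members, against 31.1%. Of the other members 9 were highest in cerebellum (28.7% of all genes), 6 in olfactory bulb (24.3%) and 4 in pontine nucleus (22.6%). Lowest levels fell to cerebellum for 4 members (21.5% of all genes), to olfactory bulb for 6 (20.5%) and to superior colliculus for 3 (21.7%). Markers of dividing cells had lower mean levels in both the superior colliculus and the pontine nucleus than in cerebellum and olfactory bulb. All 9 measured were highest in the cerebellum and lowest in the superior colliculus, with mean levels of 10.70 in cerebellum, 10.21 in olfactory bulb, 8.92 in pontine nucleus and 8.64 in superior colliculus. Their part in the members' differences was not tested.

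**Figure D2:**
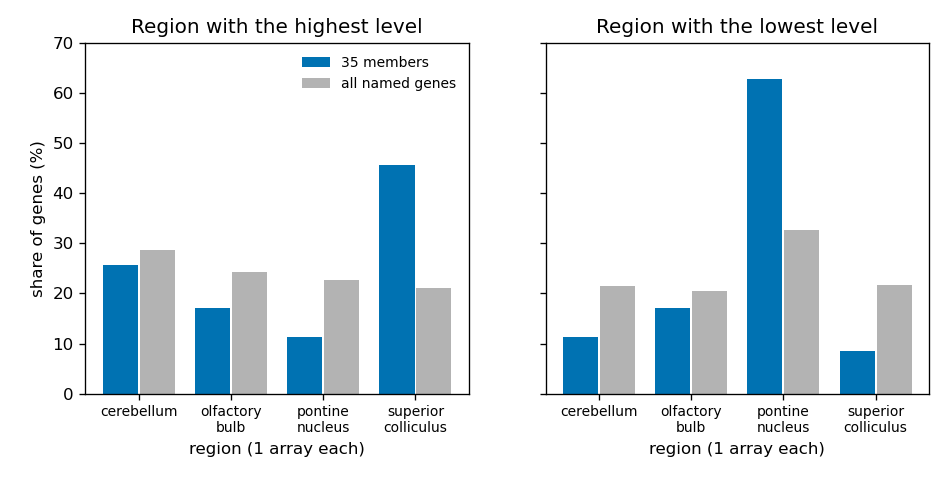
Share of genes (%) whose highest (left) or lowest (right) level lay in each region, for the 35 members (blue) and for all 19938 named genes (grey). Of the members 45.7% were highest in the superior colliculus and 62.9% lowest in the pontine nucleus, against 21.1% and 32.7% of all genes.

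By the rule 6 members were higher in a single region and 6 lower. In the cerebellum 1 member was higher (0.361% of all genes) and 0 lower (0.0953%). In the olfactory bulb 1 was higher (0.592%) and 1 lower (0.241%). In the pontine nucleus 1 was higher (0.507%) and 5 were lower, 14.3% of members against 0.552% of all genes. In the superior colliculus 3 were higher, 8.57% of members against 0.431% of all genes, and 0 lower (0.0903%). The higher genes were Cdh9 in the cerebellum, Cdh19 in the bulb, Cdh7 in the pontine nucleus, and Cdh13, Pcdh8 and Pcdh18 in the superior colliculus. The lower genes were Cdh8 in the bulb and Cdh4, Cdh10, Cdh12, Pcdh11x and Pcdh18 in the pontine nucleus. Pcdh18 was thus called in both directions, high in the superior colliculus and low in the pontine nucleus. Single arrays weighed on these counts. With an array left out, any gene meets the rule more easily in a remaining region. Shares over all genes were not taken for these calls. Members higher in the superior colliculus numbered 5 without the cerebellum array and 6 without the bulb array. Members lower in the bulb numbered 3 without the pontine array, and 2 without the superior colliculus array, which also left 2 higher in the bulb. Members lower in any region fell from 6 to 3 without the pontine array.

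**Figure D3:**
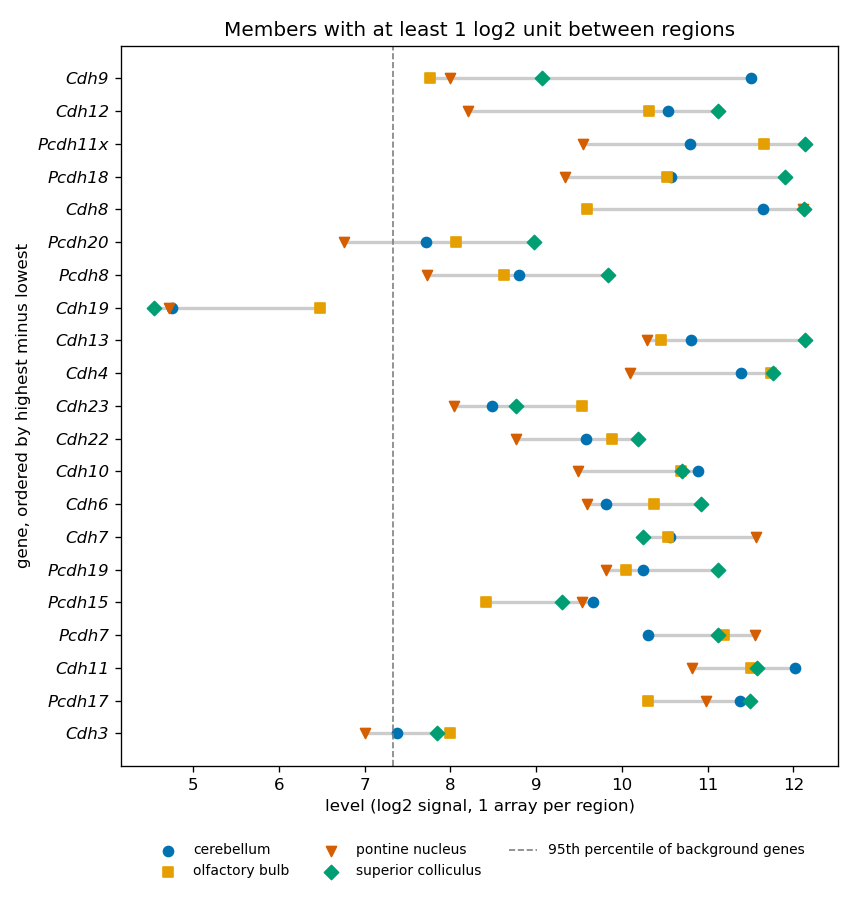
Levels (log2 signal) of the 21 members with at least 1 unit between regions, ordered by that difference, with 1 point per region and a grey bar from lowest to highest. The dashed line marks 7.33, the 95th percentile of the background genes. Cdh9 stands out on the cerebellar side at 11.50, Cdh8 reads lowest in the olfactory bulb at 9.59, and Cdh12 reads lowest in the pontine nucleus at 8.21.

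The 5 type I cadherins had a median highest minus lowest of 0.40. Cdh1, Cdh3 and Cdh15 were at or near background, and Cdh2 and Cdh4, the only type I genes with a mean level above 8.56, spanned 0.40 and 1.67, a median of 1.035. Above that level the medians were 1.32 for type II and 1.25 for the protocadherins. Cdh2, the N-cadherin of neural tissue, read 12.39 in cerebellum, 12.55 in olfactory bulb, 12.79 in pontine nucleus and 12.55 in superior colliculus. It was bright in every region, and the 0.40 units between its extremes lay within the span of the background genes. Cdh4, the R-cadherin first known from retina, read 11.39, 11.74, 10.09 and 11.76 in the same order. Its pontine level lay 1.30 units (2.46-fold) below the next lowest array, while the other 3 arrays lay within 0.37 units of each other. Cdh3, the P-cadherin, read 7.38, 8.00, 7.00 and 7.85, just 1 unit between olfactory bulb and pontine nucleus, and its pontine level was at background. Cdh1, the E-cadherin of epithelia, was at background on each of the 4 arrays, between 6.88 and 7.11. Cdh15, the M-cadherin of muscle, lay between 7.62 and 7.70.

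The type II genes Cdh9 and Cdh12 spanned the most of any member, 3.74 and 2.91 units. Of 13 type II cadherins, 9 varied and the median of highest minus lowest was 1.33. Of 12 protocadherins 8 varied, with a median of 1.25, against 9.33% of all genes. Without the pontine nucleus array 4 of 13 type II genes and 7 of 12 protocadherins varied, against 6.12%. The type II calls were spread over 3 regions. Cdh9 was high in the cerebellum, Cdh19 in the bulb and Cdh7 in the pontine nucleus. Cdh8 was low in the bulb, and Cdh10 and Cdh12 were low in the pontine nucleus. Promoter sequences of Cdh9, Cdh8 and Cdh12 are shown because these genes led the cerebellar, bulbar and pontine differences, together with that of Pcdh18, which led those of the superior colliculus. Each is the 250 bases before the gene's start, from RefSeq on build GRCm38.p6, written 5′ to 3′ on the gene's strand. Capitals mark CAGCTG (an E-box, the site class of proneural factors) and GGGCGG (a GC box). On the + strand of chromosome 15, the Cdh9 window is chr15:16728665-16728914 and the Cdh12 window chr15:21111202-21111451. On the - strand, the Cdh8 window is chr8:99416472-99416721 and the Pcdh18 window chr3:49757317-49757566.
Cdh9: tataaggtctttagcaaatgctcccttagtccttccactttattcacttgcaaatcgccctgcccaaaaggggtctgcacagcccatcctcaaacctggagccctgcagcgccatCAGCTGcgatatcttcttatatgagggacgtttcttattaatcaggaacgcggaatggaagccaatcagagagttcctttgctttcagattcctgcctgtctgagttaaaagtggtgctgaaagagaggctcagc
Cdh12: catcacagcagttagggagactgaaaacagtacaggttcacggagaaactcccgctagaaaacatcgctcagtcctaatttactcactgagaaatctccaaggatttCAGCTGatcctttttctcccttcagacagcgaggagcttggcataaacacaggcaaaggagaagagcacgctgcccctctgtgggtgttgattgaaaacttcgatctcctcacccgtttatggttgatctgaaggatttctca
Cdh8: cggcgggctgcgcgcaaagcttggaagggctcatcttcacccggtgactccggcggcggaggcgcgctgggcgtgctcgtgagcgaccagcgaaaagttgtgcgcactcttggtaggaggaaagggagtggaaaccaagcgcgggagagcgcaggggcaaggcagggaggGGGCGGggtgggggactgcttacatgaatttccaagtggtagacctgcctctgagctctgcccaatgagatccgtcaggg
Pcdh18: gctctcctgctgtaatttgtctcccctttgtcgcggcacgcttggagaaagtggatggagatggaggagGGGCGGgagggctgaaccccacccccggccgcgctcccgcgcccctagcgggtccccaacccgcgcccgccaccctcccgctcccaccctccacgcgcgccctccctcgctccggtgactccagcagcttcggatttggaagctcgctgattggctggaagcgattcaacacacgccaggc

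The E-box letters began 135 bases before the start of Cdh9 and 143 bases before that of Cdh12, and the GC box letters 80 bases before Cdh8 and 181 before Pcdh18. GC content was 48.0% for Cdh9 and 46.8% for Cdh12, against 64.4% for Cdh8 and 68.0% for Pcdh18. A RefSeq promoter was found for 22 of the 35 members, with 25 windows in all. On both strands, CAGCTG was present before 2 of the 22 genes, Cdh9 and Cdh12, and in 13.0% of all 32851 promoter windows. GGGCGG was present in 9 of the 25 windows and in 32.7% of all. TAATTA, a homeodomain core, was present in 1 of the 25 (4.84% of all), TCAAAG, a Tcf/Lef core, in 2 (13.8%), and TATAAA in 2 (12.4%). The motifs overlap at no position in the 4 windows shown. A match is a description of letters and shows neither binding nor a cause of the levels.

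Cdh9 (probe set 10423230), a type II cadherin known for matching synaptic partners in the hippocampus, read 11.50 in cerebellum, 7.76 in olfactory bulb, 8.00 in pontine nucleus and 9.07 in superior colliculus. The cerebellum lay 2.43 units (5.39-fold) above the superior colliculus, which itself lay more than 1 unit above the other regions. Cdh6 and Cdh10 are its nearest relatives by sequence. Cdh10 read 10.89, 10.69, 9.49 and 10.70 in the same order, and was set apart only by its low pontine level, 1.20 units (2.30-fold) below the bulb. Cdh6 read 9.81, 10.37, 9.59 and 10.92, highest in the superior colliculus by 0.55 units. Cdh6 and Cdh10 thus shared the pontine nucleus as lowest region, while Cdh9 was lowest in the bulb. Cdh9 and Cdh10 were both highest in the cerebellum, Cdh10 by only 0.19 units.

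Cdh8 (probe set 10580990) read 11.64 in cerebellum, 9.59 in olfactory bulb, 12.11 in pontine nucleus and 12.12 in superior colliculus. The bulb alone was low, by 2.05 units (4.14-fold), and the pontine nucleus and superior colliculus differed by 0.01. Cdh11, its close relative and also a cadherin of mesenchyme, read 12.02, 11.51, 10.82 and 11.58, so that its lowest level was in the pontine nucleus, where Cdh8 was near its highest. Meningeal and fibroblast markers were highest in the olfactory bulb for 8 of 10 genes, with mean levels of 7.91, 8.55, 7.79 and 8.00 in the 4 regions. Their part in the Cdh11 levels was not tested. Another 3 probe sets name Cdh11 together with other genes and were not used. Cdh24, of the same subfamily, read 9.31, 9.17, 9.59 and 9.96 and did not vary by the rule. A second Cdh24 probe set read 8.21, 8.10, 8.22 and 8.12. It spanned only 0.12 units and was highest in the pontine nucleus, not in the superior colliculus.

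Cdh12 (probe set 10423258), a neuronal cadherin, read 10.54 in cerebellum, 10.32 in olfactory bulb, 8.21 in pontine nucleus and 11.12 in superior colliculus. Its pontine level was 2.11 units (4.32-fold) below the next lowest region, the widest gap of any member in that direction. Cdh22, a cadherin of pituitary and brain, was likewise lowest in the pontine nucleus and highest in the superior colliculus, at 9.58, 9.88, 8.77 and 10.19, with the pontine nucleus 0.81 below the cerebellum. Cdh7 went the opposite way at 10.56, 10.54, 11.56 and 10.25. The pontine nucleus was 1 unit (2-fold) above the cerebellum, exactly at the threshold, and 0.93 above it after quantile normalization of the arrays, which ends the call. Cdh20 read 10.17, 9.27, 9.23 and 9.82, and Cdh18 9.32, 9.47, 9.15 and 9.51, neither of them varying by the rule. Cdh7, Cdh12, Cdh18, Cdh20 and Cdh22 belong to the same type II subfamily, and in it only Cdh7 was highest in the pontine nucleus.

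Cdh19 and Cdh5 are type II cadherins of other cell types. Cdh19, a cadherin of Schwann cell precursors and related glia, read 4.76 in cerebellum, 6.48 in olfactory bulb, 4.72 in pontine nucleus and 4.54 in superior colliculus. The bulb lay 1.72 units above the cerebellum, yet every value was at background, so the call says little about a level. Of 8 measured markers of peripheral and olfactory ensheathing glia, 4 (Erbb3, Frzb, Foxd3 and Npy) were also higher by the rule in the bulb. Sox10 read highest there too, but by 0.49 units. The list was not uniform: S100b and Fabp7 peaked in cerebellum, while Mbp had its top level in pontine nucleus and its lowest in the bulb. The list's mean level was 9.95 in the bulb against 8.80 to 8.89 elsewhere. The part of these markers in the Cdh19 difference was not tested. Cdh5, the VE-cadherin of endothelium, read 9.33, 9.49, 9.47 and 9.36. Of 10 endothelial markers, 0 varied by the rule, which for so few genes is near the 9.33% of all genes. Their mean levels lay between 8.58 and 8.74.

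Of the 5 other cadherins, 2 varied, against 9.33% of all genes. Cdh13 (probe set 10575844), the T-cadherin, is held in the membrane by a lipid anchor and has no cytoplasmic tail. It read 10.81 in cerebellum, 10.45 in olfactory bulb, 10.29 in pontine nucleus and 12.13 in superior colliculus. The superior colliculus was 1.32 units (2.50-fold) above the cerebellum, and the other 3 regions lay within 0.52 units. Cdh23, the large cadherin of hair cell tip links, read 8.48, 9.53, 8.04 and 8.77, with the bulb 0.76 above the superior colliculus. Pcdh15, its partner in the tip link, was the converse: 9.66, 8.41, 9.54 and 9.30, lowest in the bulb by 0.89 units. A second Pcdh15 probe set read 8.56, 8.43, 9.35 and 9.01 and was likewise lowest in the bulb, but by 0.13 units. That set was highest in the pontine nucleus instead of the cerebellum. It spanned 0.92 units and so did not vary by the rule. Cdh16, Cdh17 and Cdh26, cadherins of kidney, intestine and epithelia, were at background on each array and spanned at most 0.20 units.

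**Figure D4:**
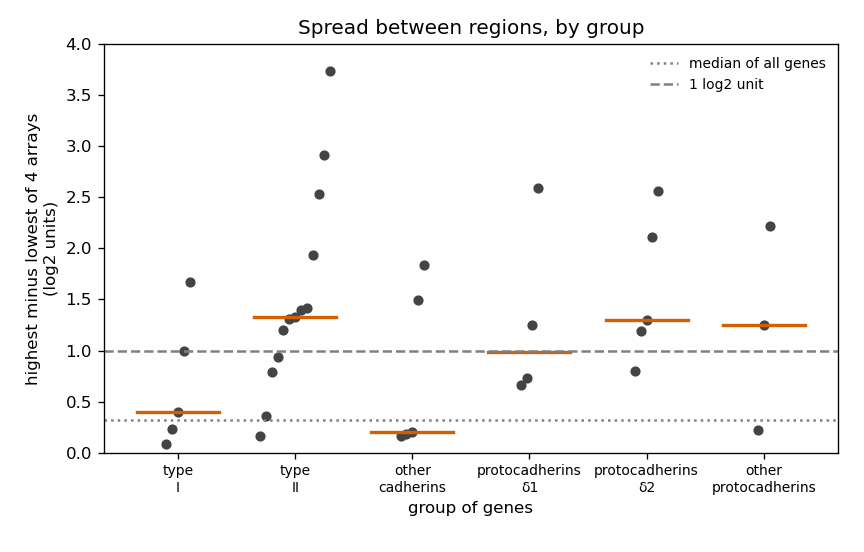
Highest minus lowest of the 4 arrays (log2 units) for each member (points), by group, with the group median as an orange line. The dotted line is the median over all genes, 0.32, and the dashed line the 1-unit rule. The medians of the type II (1.33) and delta-2 (1.30) groups lie above the rule and that of the type I group (0.40) below it, where 3 of 5 genes are at or near background; over the type I genes with a mean level above 8.56 it is 1.035.

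The delta-2 protocadherins all read highest in the superior colliculus. Measured from the mean level elsewhere, their median difference was 1.08 units there, against -0.01 over all genes, and -0.65 in the pontine nucleus, against -0.04. Pcdh18 (probe set 10498018) read 10.57 in cerebellum, 10.53 in olfactory bulb, 9.34 in pontine nucleus and 11.90 in superior colliculus. The superior colliculus was 1.33 units (2.51-fold) above the cerebellum, and the pontine nucleus 1.19 units (2.28-fold) below the bulb. Pcdh8, whose protein is taken up from synapses with activity, read 8.80, 8.62, 7.73 and 9.84, with the superior colliculus 1.04 units (2.06-fold) above the cerebellum. Pcdh18 and Pcdh8 thus had the same order of regions.

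Pcdh19, an X-linked gene whose human counterpart is linked to epilepsy in girls, read 10.24, 10.05, 9.82 and 11.12 and was 0.88 units higher in the superior colliculus than in the cerebellum. Pcdh10, which acts in axon growth of the forebrain, read 11.00, 11.13, 10.89 and 11.69, with a gap of 0.56. Pcdh17, which binds extending axons together, read 11.38, 10.30, 10.98 and 11.49, so the gap to the cerebellum was only 0.11. Unlike the other 4, Pcdh17 was lowest in the olfactory bulb and not in the pontine nucleus.

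**Figure D5:**
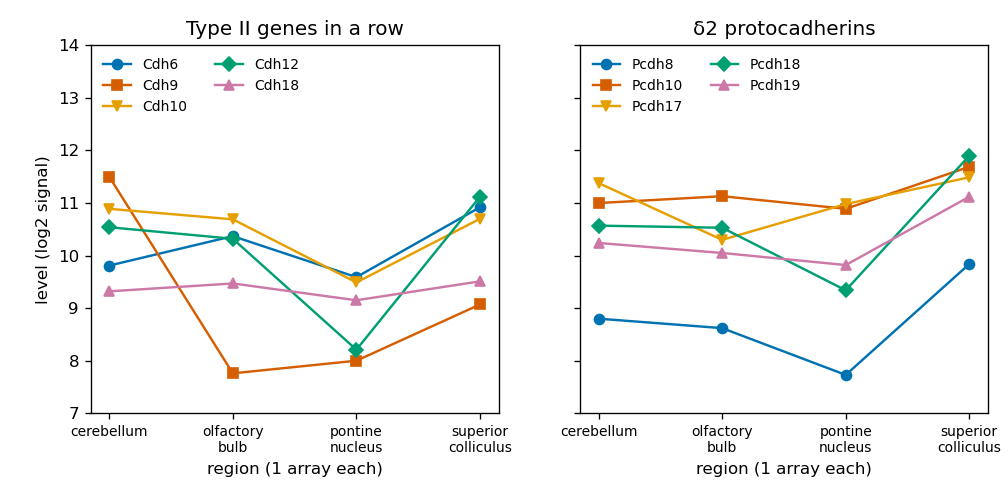
Levels (log2 signal) in the 4 regions, 1 array each, of 5 type II cadherin genes that follow each other on chromosome 15 (left) and of the 5 delta-2 protocadherins (right). Lines join the values of a gene and stand for no order of the regions. On the left Cdh9 reads 11.50 in the cerebellum and Cdh12 8.21 in the pontine nucleus. On the right each gene is highest in the superior colliculus, from 9.84 for Pcdh8 to 11.90 for Pcdh18.

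The 4 delta-1 protocadherins differed in their highest region, but in the cerebellum each read below its mean level elsewhere, and the median of these differences was -0.41. For Pcdh9 the difference was only -0.03, within 0.16, the SD of the background genes' differences. Pcdh11x (probe set 10601569), an X-linked gene, read 10.79 in cerebellum, 11.66 in olfactory bulb, 9.55 in pontine nucleus and 12.14 in superior colliculus. The pontine nucleus lay 1.24 units (2.36-fold) below the cerebellum. Pcdh7, which takes part in axon and dendrite growth, read 10.30, 11.19, 11.55 and 11.12 and was lowest in the cerebellum by 0.82 units. Pcdh9, at 11.61, 11.30, 11.96 and 11.65, and Pcdh1, at 7.89, 8.50, 8.01 and 8.62, did not vary by the rule. A second Pcdh9 probe set gave the same order, from 11.23 in the bulb to 11.85 in the pontine nucleus. The superior colliculus was above the mean of the other arrays for 4 of 4, by a median of 0.30, yet was highest only for Pcdh1 and Pcdh11x. For Pcdh9 and Pcdh7 it was above that mean by only 0.03 and 0.11, also within that SD.

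The remaining protocadherins were Pcdh12, Pcdh15 and Pcdh20. Pcdh20 read 7.72 in cerebellum, 8.07 in olfactory bulb, 6.76 in pontine nucleus and 8.98 in superior colliculus. Its order of regions was that of Pcdh11x, and since the pontine value was at background, the 2.22 units between pontine nucleus and superior colliculus are a lower bound. Pcdh12, an endothelial protocadherin, lay between 8.51 and 8.73.

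The medians of the 3 main groups are set side by side by region. In the superior colliculus the median difference from the mean level elsewhere was -0.03 for type I, 0.26 for type II and 0.64 for the protocadherins, of which 11 of 12 lay above that mean. In the pontine nucleus the medians were -0.16, -0.54 and -0.36, with 4 of 5, 9 of 13 and 9 of 12 genes below. They were 0.04, -0.03 and -0.06 for the cerebellum, against 0.05, 0.10 and -0.07 for the bulb. Over all genes the 4 medians were 0.02, 0.01, -0.04 and -0.01. Of all 19938 genes, 11522 lay below the mean level elsewhere in the pontine nucleus, and 9568 lay above it in the superior colliculus. The type II median in the superior colliculus was 0.10 without the pontine array and 0.58 without the cerebellum array. The protocadherin median in the pontine nucleus was -0.18 without the superior colliculus array and -0.535 without the cerebellum array. No test of a difference between the groups was possible with 1 array per region. The type I values rest on 5 genes, of which Cdh2 and Cdh4 alone had a mean level above 8.56. Over genes above that level the pontine and collicular medians were -0.62 and 0.33 for these 2 type I genes, and -0.65 and 0.30 for 12 type II genes. For 10 protocadherins they were -0.25 and 0.64.

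Pairs of regions show where members were shared. The longest list was that of 12 members at least 1 unit higher in the superior colliculus than in the pontine nucleus (2.49% of all genes), against 1, Cdh7, the other way (1.06%). The olfactory bulb was above the pontine nucleus for 10 members (3.16%) and below it for 3 (1.65%), namely Cdh7, Cdh8 and Pcdh15. The cerebellum was above the pontine nucleus for 8 (2.72%) and below it for Cdh7 and Pcdh7 (1.26%). Cdh4, Cdh10, Cdh12, Pcdh11x and Pcdh18, the 5 genes called lower in the pontine nucleus, are by that definition in all 3 of these lists.

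Between the other regions fewer members differed. The superior colliculus was above the olfactory bulb for 7 members (1.66%), Cdh8, Cdh9, Cdh13, Pcdh8, Pcdh17, Pcdh18 and Pcdh19, and below it for Cdh19 (1.78%). The superior colliculus was above the cerebellum for 6 (1.54%), Cdh6, Cdh13, Pcdh8, Pcdh11x, Pcdh18 and Pcdh20, and below it for Cdh9 (1.88%). The cerebellum was above the olfactory bulb for 4 (1.23%), Cdh8, Cdh9, Pcdh15 and Pcdh17, and below it for Cdh19 and Cdh23 (1.5%). With the probe sets of each gene averaged the 4 became 3, without Pcdh15.

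Many members lie next to each other in the genome. By the gene order of RefSeq, 14 pairs had at most 2 protein-coding genes between them, and they involved 22 of the 35 members. Of those pairs 5 were highest in the same region and 6 lowest in the same region. Over all 595 pairs of members the shares were 29.7% and 42.9%, so agreement among these few neighbours was near that of any pairing of members. Of the 8 pairs with no protein-coding gene between them, only Cdh9 and Cdh10 were highest in the same region. On chromosome 15 Cdh6, Cdh9, Cdh10 and Cdh12 follow each other directly, with Cdh18 beyond 1 further gene. Cdh6, Cdh12 and Cdh18 were highest in the superior colliculus and Cdh9 and Cdh10 in the cerebellum. Pcdh10 and Pcdh18, on either side of 1 gene on chromosome 3, were both highest in the superior colliculus and lowest in the pontine nucleus. So were Pcdh11x and Pcdh19, with 13 genes between them on the X chromosome. Cdh8 and Cdh11 adjoin on chromosome 8 and had different regions at both ends.

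The intracellular partners are read against the 9.33% of all genes that varied and their median highest minus lowest of 0.32. Of 11 genes listed as catenins or catenin-like, 0 varied by the rule, and their median was 0.46. The widest was Pkp4 at 10.95, 11.11, 11.80 and 11.05 in the order cerebellum, olfactory bulb, pontine nucleus and superior colliculus. Ctnnb1, the beta-catenin that binds the cadherin tail, read 12.84, 12.88, 12.13 and 12.82, lowest in the pontine nucleus by 0.69 units. Of 9 measured genes, those of the WAVE complex and the kinase gene Taok2, 0 varied, with a median of 0.38, and Wasf1 spanned the most at 0.77 units. Of 13 measured genes of cadherin processing and junctions, 1 varied, the nectin gene Nectin3, at 10.69, 10.32, 9.66 and 10.15, and the median was 0.32. These counts of a few genes are near the share over all genes.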

How the data were processed

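In the authors' deposited table each probe set had 1 log2 value on each array. Affymetrix Expression Console was used, per the submitters' processing notes. Version, summarisation, background correction, normalization and build were not stated there. The log2 scale was inferred from the range of 2.43 to 14.57. Scaling between arrays by the authors can remove a general difference between regions, and weak signals approach a background, which compresses folds.

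Of 35556 probe sets, 21789 had 1 gene symbol in the array's annotation table, 1621 had several and 12146 had none. Entrez IDs matched 21698 of the singly named sets to RefSeq, which changed 0 symbols. Of several probe sets of a gene, that with the highest mean was used. Counts were taken over all members with no filter on low levels; 5 members were at background on every array and 26 had a mean level above 8.56. With single arrays there was no test. Each of the 35 members is named, and of related lists up to 4 genes past the rule for a single region, or up to 2 that spanned the most. Members, lists and rules were chosen with earlier results of these data known. Counting by the rule was checked on simulated data. Alternatives were another scaling, the mean of probe sets, filters on level, 2 units as the rule and each array left out. Python 3.11.15, NumPy 2.4.6, pandas 2.3.3 and Matplotlib 3.10.9 were used.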

Additional observations from a re-analysis of the deposited data

How the results depend on the processing

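Quantile normalization took the count of members higher in the pontine nucleus to 0, since it ended the call of Cdh7 (0.93), and left 1 of 2 members higher there than in the cerebellum. With probe sets averaged, highest minus lowest became 0.405 for Cdh24 and 1.025 for Pcdh15. Centring of the arrays, or averaging the probe sets of a gene, moved no count by over 1.5 times and no group median by over 0.16 units, the SD of the background genes' differences. With any of the 3 level filters 0 members were higher in the olfactory bulb, since Cdh19 was removed. With a mean level above 8.56, which left 2 genes each of type I and the other cadherins, type I medians became 0.32 (bulb), -0.62 (pontine nucleus) and 0.33 (superior colliculus). Those of the other cadherins became -0.22 (cerebellum), 0.24, -0.86 and 0.85, and the type II cerebellar median 0.17. With a mean level above background the type I medians were 0.32, -0.39 and 0.18 and the others as just given. With 2 units instead of 1, 7 members varied, 1 was higher in a region and 2 were lower (1 in the pontine nucleus), with 0 higher in the bulb, pontine nucleus and superior colliculus. Against the mean of the other arrays, 12 were higher (2 in the bulb, 8 in the superior colliculus) and 12 lower (3 in the bulb, 9 in the pontine nucleus). Any gene meets that rule more easily, and shares over all genes were not taken for it or for 2 units.

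Leaving out each array in turn was chosen after seeing the data, and any shares over all genes were taken only without the pontine nucleus array. Between 13 (without the pontine nucleus) and 19 members then varied, 3 (without the pontine nucleus) to 8 were lower in a region, 3 to 6 were higher in the superior colliculus, and 1 to 2 were higher and 1 to 3 lower in the bulb. The type II median ranged from 0.10 (without the pontine nucleus) to 0.58 (without the cerebellum) in the superior colliculus, and from -0.765 (without the bulb) to -0.415 in the pontine nucleus. The protocadherin median in the pontine nucleus ranged from -0.535 to -0.18 (without the superior colliculus).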

Other observations

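Other branches of the cadherin superfamily had patterns of their own. All 22 measured clustered protocadherin genes, which were of the beta cluster, were highest in the superior colliculus (13) or the pontine nucleus (9). The mean level of the cluster was 8.36 in cerebellum, 8.41 in olfactory bulb, 8.83 in pontine nucleus and 8.86 in superior colliculus. By the rule 0 of the 22 varied, against 9.33% of all genes. Pcdhb7 spanned the most, from 8.66 in the cerebellum to 9.46 in the superior colliculus. These genes are near copies of each other, so probes may be shared and the 22 values are not independent. Among the seven-pass and giant cadherins, 5 of 9 varied, against 9.33% of all genes. Fat2, known from cerebellar granule cells, read 9.71 in cerebellum, 7.34 in olfactory bulb, 9.08 in pontine nucleus and 7.49 in superior colliculus. Fat3 was nearly the reverse at 10.69, 12.43, 10.10 and 12.16.

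The calsyntenin gene Clstn2 read 10.94, 12.07, 8.42 and 11.03 in the same order, low in the pontine nucleus and high in the bulb. Cdhr1, which marks mitral cells, read 12.90 in the bulb against at most 9.63. Of 7 desmosomal cadherin genes, 6 were at background on every array. Dsc3 was the exception, at 7.57 in the pontine nucleus and 6.47 to 6.65 elsewhere.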
